A study of Danio rerio with 4 samples.

Results

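The endoplasmic reticulum (ER) is where secreted and membrane proteins enter the secretory route, are folded, receive their sugars and disulfide bonds, and are removed when they fail to fold. When unfolded protein accumulates there, the membrane sensors Ire1, Atf6 and Perk start the unfolded protein response, which raises the output of ER chaperones and degradation factors and slows translation. Blood-forming tissue relies on this machinery in plasma cells and in granule-forming myeloid cells, which secrete or store large amounts of protein. The genes described here are those of ER folding and stress, 59 of 32434 genes in the table, chosen by a rule on their symbols. They cover 11 chaperones and co-chaperones, 5 lectin chaperones, 8 disulfide enzymes, 5 stress sensors and their effector xbp1, 12 factors of ER-associated degradation, 11 subunits of the translocon and its associated TRAP complex, and 7 of the signal peptidase and the oligosaccharyltransferase. A match on the start of a symbol also took in DNAJC30, a mitochondrial protein, and SEL1L3, a relative of sel1l. Another 5 genes carry a matching name in a current list of gene names but an older symbol in the table, and were not counted as members.

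Messenger RNA was measured in progenitor cells (HSPCs) taken from adult zebrafish kidney marrow, where fish make their blood. Of the 4 libraries, 2 came from homozygous tet2 mutant fish (tet2m/m) and 2 from wild-type fish (tet2wt/wt), all untreated. The mutant line was made with zinc finger nucleases and carries a small frameshifting deletion that removes the catalytic activity of Tet2, an enzyme that oxidizes methylated cytosine, in every cell of the fish and not only in blood. The fish were 4 months old by the sample titles, the headers of the count table and the study's account of this comparison, although the sample descriptions say 15 months. The cells were sorted by light scatter and not by a lineage marker, so each library is a mixture, and in such bulk samples fewer cells of a type and less RNA per cell cannot be told apart. RNA was taken from an aliquot of the sorted cells, and the replicates of the methylation assay done on these cells are described as biological pools. The labels do not say which animals went into each RNA library, so p-values measure only the spread between these libraries.

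Total counts ranged from 8838603 to 10710913, and a count of 0 allows up to 0.271 to 0.396 CPM, the reads of a gene per 1000000 TMM-scaled reads, where this bound reflects counting error alone. All 59 genes had more than 5 reads over the 4 libraries and were tested. The tet2 transcript itself was covered by 332 and 185 reads in wild type and by 232 and 282 in mutants, so its level does not check the labels. Blood progenitor markers were present, with 22 of 23 listed genes tested and a summed level of 3268 to 3314 CPM in wild-type and 2401 to 2522 CPM in mutant libraries. The wild-type libraries differed from each other in the ER genes: 41 of 59 were lower in replicate 2 than in replicate 1, with a median log2 difference of 0.17, against 0.01 over all genes tested. In 19 of 59 genes this difference was larger in size than the change between genotypes. The same count was not made over all genes, so it does not set these genes apart.

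Between tet2m/m and wild-type HSPCs, 3 of the 59 genes were called. A call required that edgeR's quasi-likelihood test gave an adjusted p below 0.05 with a log2 fold change over 1 in either direction. All 3 were disulfide enzymes: ero1l rose, and pdia2 and agr2 fell. Over all 17242 genes tested 1.14% were called, 0.516% higher and 0.626% lower. Short of a call, the ER genes leaned upward. At an unadjusted p under 0.05, 20 of 59 were higher in the mutants, against 8.08% of all genes, and 4 of 59 were lower, against 8.22%. In 32 of 59 both mutant libraries lay above both wild-type libraries (23.1% of all genes), and in 9 of 59 both lay below (21.7%). The log2 fold change was positive for 43 of 59, against 49.4% of all genes, and its median was 0.31, against -0.01. Among genes with a mean of at least 10 CPM, 19 ER genes of 53 were higher at an unadjusted p under 0.05 (11.1% of all such genes). Of these 53, 42 had positive values, against 55.9% of all such genes, whose median was 0.06. Both mutant libraries lay above both wild-type ones in 31 (29.4% of all such genes) and below in 7 (20.1%). The count of 20 depended on wild-type replicate 2. Without it, 9 of 59 genes were higher at an unadjusted p under 0.05 (5.55% of all genes), 8 of them among the 20. DESeq2 called 5 ER genes, adding calrl (higher) and ern1 (lower), and 1.29% of all genes. At an unadjusted DESeq2 p under 0.05, 14 ER genes were higher (3.65% of all genes) and 4 lower (3.35%). The older form of the quasi-likelihood test called 6 ER genes and 3.71% of all genes, and the fit without the replicate number called pdia2 and agr2 only, with 1.09% of all genes. With genes of very few reads kept in the test, 0 ER genes and 0.0505% of all genes were called. In that fit 19 ER genes were higher (5.39% of all genes) and 4 lower (6.12%) at an unadjusted edgeR p under 0.05. With 1 library left out and no replicate term, edgeR called 9 ER genes without wild-type replicate 1 (1.76% of all genes), 3 without wild-type replicate 2 (0.767%), 8 without mutant replicate 1 (5.36%) and 4 when mutant replicate 2 was dropped (2.32%).

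**Figure D1:**
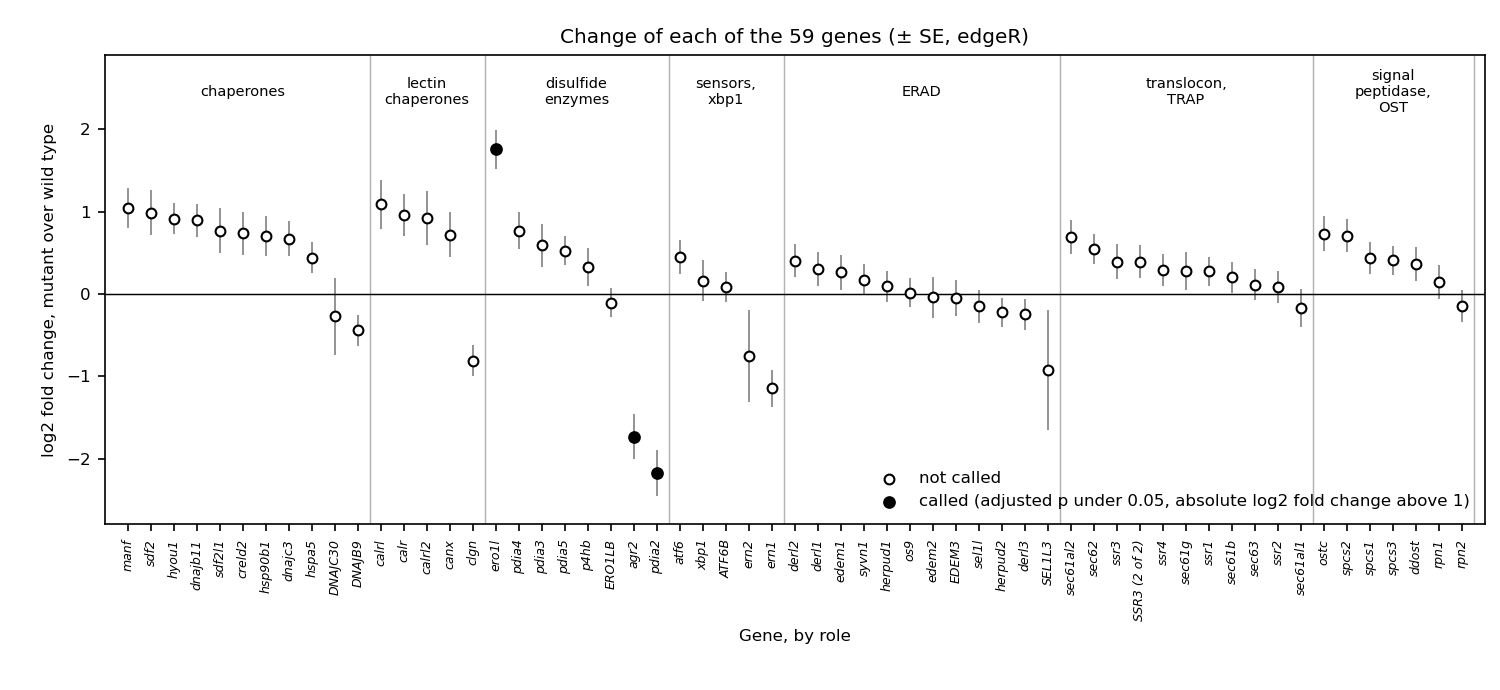
The log2 fold change of each of the 59 genes (mutant over wild type, vertical axis, bars show ± SE from edgeR) is plotted by role along the horizontal axis. Filled points mark the 3 called genes, ero1l above and agr2 and pdia2 below the line, and open points mark the others, of which most chaperones lie between 0.4 and 1.1.

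Chaperones bind unfolded chains and keep them from aggregating. The central ER chaperone is the Hsp70 protein BiP, encoded by hspa5, which works with J-domain co-chaperones (dnajb9, dnajb11, dnajc3) and the exchange factor Hyou1. Of the 11 genes in this group 0 were called by edgeR and 0 by DESeq2. With an unadjusted edgeR p under 0.05 there were 9 higher (8.08% of all genes) and 0 lower (8.22%). The same 9 had both mutant libraries above both wild-type libraries, as did 23.1% of all genes. The median log2 fold change of the group was 0.73. Their summed level was 623 and 472 CPM in wild-type replicates 1 and 2, and 846 and 839 CPM in mutant replicates 1 and 2.

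The level of hspa5 was 152 and 137 CPM in wild-type replicates 1 and 2 and 205 and 187 CPM in mutant replicates 1 and 2. Its groups did not overlap, and its log2 fold change of 0.44 ± 0.19 (SE) was among the smaller ones of the group (edgeR adjusted p = 0.303). The gene of its exchange factor, hyou1, stood at 70.6 and 42.9 CPM in wild type and at 119 and 91.1 CPM in mutants. Its log2 fold change was 0.92 ± 0.19 (SE, edgeR adjusted p = 0.0765, DESeq2 adjusted p = 0.049). The value for hyou1 depended on the wild-type libraries, at 1.26 without replicate 1, where it was called, and 0.56 without replicate 2. It was called as well without mutant replicate 2, at 1.06.

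Among the co-chaperones, dnajb11 was at 47.6 and 34.6 CPM in wild type and at 72.7 and 78.3 CPM in mutants (log2 fold change 0.89 ± 0.20, SE, edgeR adjusted p = 0.0994). Its mutant libraries were close together and clear of both wild-type ones. It was called without wild-type replicate 1 (1.10), and was 0.66 without wild-type replicate 2. For dnajc3 the levels were 18.95 and 11.1 CPM in wild type and 26.9 and 19.95 CPM in mutants (edgeR adjusted p = 0.194), so mutant replicate 2 was nearly level with wild-type replicate 1. By contrast DNAJB9, a co-chaperone that also binds Ire1 in mammals, stood at 38.2 and 36.0 CPM in wild type and at 30.9 and 24.2 CPM in mutants (log2 fold change -0.44 ± 0.19, SE, edgeR adjusted p = 0.309). It was the only gene of this group whose mutant libraries both lay below the wild-type ones. For each hspa5 read there were 0.252 and 0.263 reads of DNAJB9 in wild type and 0.151 and 0.129 in mutants, which restates their levels and adds no separate evidence. The remaining gene with a negative value was the mitochondrial DNAJC30, at -0.27.

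The BiP-binding protein Manf, which is also secreted under stress, had the largest log2 fold change of the group. Its transcript was at 19.9 and 12.01 CPM in wild type and at 31.1 and 33.0 CPM in mutants (log2 fold change 1.04 ± 0.25, SE, edgeR adjusted p = 0.105). It was called without wild-type replicate 1 (1.39) or mutant replicate 1 (1.04), and was 0.68 without wild-type replicate 2. The genes sdf2 and sdf2l1 encode partners of the dnajb11 product. Their levels were 5.10 and 5.28 CPM against 10.7 and 9.84 CPM for sdf2, the more even of the pair. For sdf2l1 they were 14.2 and 11.5 CPM against 17.2 and 27.6 CPM, and it was called without mutant replicate 1 (1.10). The stress-induced secreted factor gene creld2 was at 8.05 and 6.99 CPM in wild type and 15.6 and 9.93 CPM in mutants.

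The ER Hsp90, hsp90b1, folds a narrow set of clients such as integrins and Toll-like receptors. Its transcript was at 247 and 172 CPM in wild type and 315 and 356 CPM in mutants. Its log2 fold change was 0.70 ± 0.24 (SE, edgeR adjusted p = 0.227), with no overlap between the groups.

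**Figure D2:**
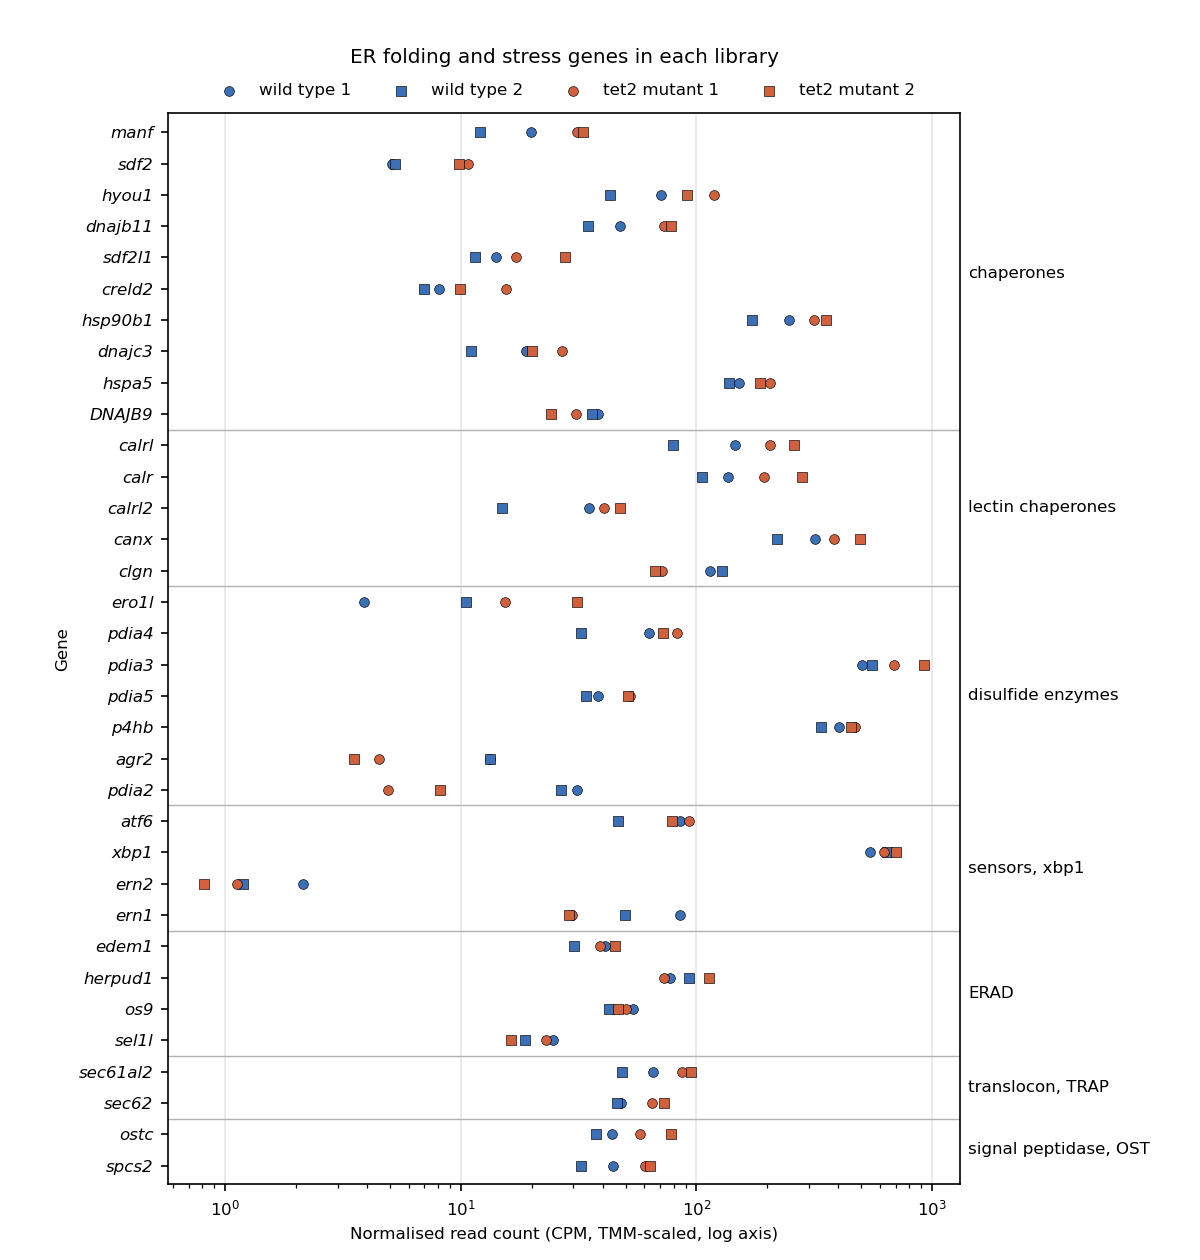
Normalised read counts (CPM, log axis) of 34 ER genes are shown in each of the 4 libraries, circles for replicate 1 and squares for replicate 2, blue for wild type and orange for tet2 mutant. The mutant points of most chaperone and lectin genes lie to the right of the wild-type points, while those of DNAJB9, clgn, agr2, pdia2, ern1 and ern2 lie to the left. The points of xbp1, atf6 and the plotted degradation genes (herpud1, edem1, sel1l and os9) overlap.

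Lectin chaperones hold glycoproteins by their sugars while they fold; calreticulin is soluble and calnexin is its membrane-bound counterpart. Of these 5 genes edgeR called 0 and DESeq2 called calrl higher. With an unadjusted edgeR p under 0.05 there were 4 higher (8.08% of all genes) and 1 lower (8.22%). The calreticulin gene calr was at 136 and 105 CPM in wild-type and 193 and 279 CPM in mutant libraries (log2 fold change 0.96 ± 0.25, SE, edgeR adjusted p = 0.136, DESeq2 adjusted p = 0.0457). Its copy calrl was at 146 and 79.7 CPM in wild type and 204 and 259 CPM in mutants (log2 fold change 1.09 ± 0.30, SE, edgeR adjusted p = 0.143, DESeq2 adjusted p = 0.0284). A further copy, calrl2, was at 35.0 and 14.9 CPM in wild type and 40.4 and 47.6 CPM in mutants. All 3 copies had the same order of libraries, with wild-type replicate 2 lowest and mutant replicate 2 highest.

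The values of the calreticulin copies depended on the choice of libraries. Without wild-type replicate 1 the log2 fold changes were 1.14 for calr, 1.51 for calrl and 1.53 for calrl2, and edgeR called each of them. Without mutant replicate 1 it called calr (1.21) and calrl (1.19). Without wild-type replicate 2 they were 0.78, 0.65 and 0.32, and none was called. The calnexin gene canx was at 319 and 219 CPM in wild type and 385 and 493 CPM in mutants (log2 fold change 0.72 ± 0.27, SE, edgeR adjusted p = 0.265).

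Calmegin, encoded by clgn, is a relative of calnexin that is known in mammals from the testis. It was the exception among the lectins, at 114 and 128 CPM in wild type and 71.5 and 66.6 CPM in mutants. The log2 fold change was -0.81 ± 0.18 (SE, edgeR adjusted p = 0.0985), and replicates differed little in either group. Within a library, clgn had 0.359 and 0.583 reads per canx read in wild type and 0.186 and 0.135 in mutants. Such a ratio does not depend on the scaling of the libraries. Its groups did not overlap (exact permutation test over 4 libraries, two-sided p = 0.333, the smallest that 2 against 2 allow). This followed from clgn being lower and canx higher in both mutant libraries, so the ratio adds no separate evidence.

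Disulfide bonds are put in place by protein disulfide isomerases, which are themselves oxidized by Ero1. The gene ero1l, now named ERO1A, was at 3.87 and 10.6 CPM in wild-type replicates 1 and 2 and at 15.3 and 31.1 CPM in mutant replicates 1 and 2. The means were 7.21 ± 4.73 and 23.2 ± 11.1 CPM (SD, n = 2 each), and in both groups replicate 2 was the higher. It rose 3.38-fold, a log2 fold change of 1.76 ± 0.24 (SE, edgeR adjusted p = 0.0244). With all 4 libraries but without the replicate number as a term it was not called (edgeR adjusted p = 0.111), nor with genes of very few reads kept in the test (edgeR adjusted p = 0.109). With 1 library left out and no replicate term, it was called in 2 of 4 fits, with a positive value in each. The log2 value was 1.11 without wild-type replicate 1 (edgeR adjusted p = 0.227) and also 1.11 once mutant replicate 2 was dropped (edgeR adjusted p = 0.181). It was 2.57 and called without wild-type replicate 2 (edgeR adjusted p = 0.0289), and 2.12 and called without mutant replicate 1 (edgeR adjusted p = 4.78e-05). The other Ero1 gene, ERO1LB, was at 51.6 and 41.0 CPM in wild type and 46.8 and 39.1 CPM in mutants, with overlapping groups. There were 0.0751 and 0.257 reads of ero1l per read of ERO1LB in wild type and 0.328 and 0.794 in mutants, which restates their levels.

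The gene pdia2 encodes a disulfide isomerase known in mammals from the pancreas. It had 31.1 and 26.7 CPM in wild type and 4.91 and 8.13 CPM in mutants, with means of 28.9 ± 3.13 and 6.52 ± 2.27 CPM (SD, n = 2 each). It fell 4.51-fold, a log2 fold change of -2.17 ± 0.28 (SE, edgeR adjusted p = 0.0229). It was called by edgeR whichever of the 4 libraries was dropped (-2.55 to -1.83), by DESeq2 and without the replicate term, but not when genes with very few reads were kept in the test (adjusted p = 0.109).

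The gene agr2 encodes a disulfide isomerase that mucus-secreting cells of the mouse gut need. It was at 13.2 and 13.3 CPM in wild type and 4.50 and 3.52 CPM in mutants, with means of 13.3 ± 0.0572 and 4.01 ± 0.693 CPM (SD, n = 2 each). It fell 3.32-fold, a log2 fold change of -1.73 ± 0.28 (SE, edgeR adjusted p = 0.0389). Its log2 fold change was about the same without wild-type replicate 2, at -1.73, but the edgeR adjusted p was 0.0948. The call was also lost with RLE normalization (edgeR adjusted p = 0.0516) and with genes of very few reads kept in the test (edgeR adjusted p = 0.123). The raw counts behind it were 130 and 101 reads in wild type and 44 and 39 in mutants.

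The other isomerase genes all had positive values. The gene of the principal enzyme, p4hb, was at 401 and 337 CPM in wild type and 471 and 453 CPM in mutants (log2 fold change 0.33 ± 0.23, SE, edgeR adjusted p = 0.517). For pdia3, whose product acts with calreticulin and calnexin, the levels were 507 and 557 CPM in wild type and 691 and 924 CPM in mutants (edgeR adjusted p = 0.319). For pdia4 the levels were 62.8 and 32.5 CPM against 82.8 and 71.9 CPM, and it was called without wild-type replicate 1 (1.23). For pdia5 they were 38.1 and 34.0 CPM against 52.3 and 51.4 CPM. In all 4 of these both mutant libraries lay above both wild-type ones, as they did in 23.1% of all genes. For each read of p4hb there were 0.0774 and 0.0790 reads of pdia2 in wild type and 0.0104 and 0.0180 in mutants, which restates their levels.

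Among the 5 stress sensor and effector genes, both mutant libraries lay above both wild-type ones in 0 and below them in 2. Over all genes the shares were 23.1% and 21.7%, and 5 genes are too few to tell these counts from those shares. Ire1, encoded by ern1, is a kinase and endonuclease that splices xbp1 RNA. Its transcript was at 84.9 and 49.6 CPM in wild type and at 29.8 and 28.9 CPM in mutants. The mutant libraries were nearly equal and below both wild-type ones, with a log2 fold change of -1.15 ± 0.22 (SE, edgeR adjusted p = 0.0682). DESeq2 called ern1 lower (adjusted p = 0.0183), as did the older form of the edgeR test. With 1 library left out, edgeR called it without wild-type replicate 2 (-1.54), mutant replicate 1 (-1.22) or mutant replicate 2 (-1.18), but not without wild-type replicate 1 (-0.78). The second Ire1 gene, ern2, known in mammals from gut epithelium, was at 2.14 and 1.19 CPM in wild type and 1.13 and 0.813 CPM in mutants, or 21 and 9 against 11 and 9 reads.

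Atf6 is cut in the Golgi and its released part acts as a transcription factor for chaperone genes. The atf6 levels were 84.9 and 46.3 CPM in wild type and 93.4 and 78.6 CPM in mutants, so that the groups overlapped (log2 fold change 0.45 ± 0.21, SE, edgeR adjusted p = 0.34). Without wild-type replicate 2 it was 0.01. There were 1 and 1.07 reads of ern1 per read of atf6 in wild-type libraries, and 0.319 and 0.367 in mutant ones. This ratio restates the levels given above and adds no separate evidence. The xbp1 transcript was at 544 and 643 CPM in wild type and 624 and 701 CPM in mutants, again with overlap (log2 fold change 0.16 ± 0.25, SE, edgeR adjusted p = 0.796). Counts per gene do not separate its spliced from its unspliced form. Of the 5 genes in this group edgeR called 0 (1.14% of all genes) and DESeq2 called 1 lower (0.69%). At an unadjusted edgeR p under 0.05, 0 were higher (8.08% of all genes) and 1 lower (8.22%). With 5 genes these counts cannot be told from those shares.

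**Figure D3:**
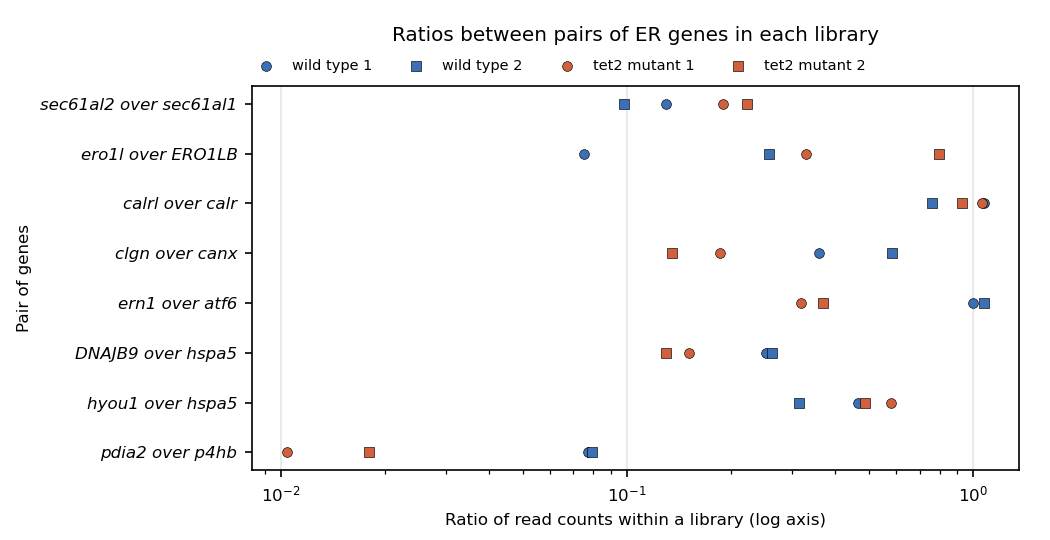
Ratios of read counts between pairs of ER genes are shown in each library on a log axis, blue for wild type and orange for tet2 mutant, circles for replicate 1 and squares for replicate 2. The ratio of ern1 to atf6 was 1 and 1.07 in wild type and 0.319 and 0.367 in mutants, whereas the points for calrl over calr overlap. The ratios restate the levels of the paired genes and add no separate evidence.

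ER-associated degradation returns misfolded proteins to the cytosol, through a complex of the ubiquitin ligase Syvn1 with Sel1l, Os9, Herpud1 and the Derlins. Among the 12 genes of this group edgeR and DESeq2 called 0 (1.14% and 1.29% of all genes). At an unadjusted edgeR p under 0.05, 0 were higher (8.08% of all genes) and 0 lower (8.22%). Both mutant libraries lay above both wild-type ones in 3 of 12 (23.1% of all genes) and below in 1 (21.7%). Values were positive for 6 of 12 (49.4% of all genes), the median was -0.01, and the range was -0.92 to 0.41. The lowest value was that of SEL1L3, with only 11 and 3 reads in wild type and 6 and 2 in mutants. The next lowest was -0.25, for derl3. The level of herpud1, a common reporter of ER stress, was 77.3 and 93.3 CPM in wild type and 72.9 and 113 CPM in mutants. For edem1, which directs glycoproteins to degradation, it was 40.8 and 30.1 CPM against 39.1 and 45.3 CPM. For sel1l it was 24.6 and 18.7 CPM against 22.9 and 16.3 CPM, and for os9, a lectin of this complex, 53.7 and 42.4 CPM against 50.0 and 46.6 CPM. In all 4 of these genes the groups overlapped. The summed level of the group was 406 and 377 CPM in wild type and 392 and 432 CPM in mutants. A p that misses the threshold does not show that the levels were equal.

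Sec61 forms the channel through which new chains enter the ER, with Sec62 and Sec63 as helpers and the TRAP subunits ssr1 to ssr4 beside it. Here 10 of 11 values were positive (49.4% of all genes), the median was 0.28, and edgeR and DESeq2 called 0. With an unadjusted edgeR p under 0.05 there were 2 higher (8.08% of all genes) and 0 lower (8.22%). The copies of the channel subunit gene differed. The copy sec61al2 was at 65.4 and 48.4 CPM in wild type and 86.8 and 95.3 CPM in mutants (log2 fold change 0.69 ± 0.20, SE, edgeR adjusted p = 0.166). Its copy sec61al1 was at 505 and 495 CPM in wild type and 459 and 430.1 CPM in mutants (log2 fold change -0.17 ± 0.23, SE, edgeR adjusted p = 0.76). There were therefore 0.130 and 0.0978 reads of sec61al2 per read of sec61al1 in wild type and 0.189 and 0.221 in mutants. These ratios did not overlap (exact permutation test, two-sided p = 0.333, the smallest possible). That followed from sec61al2 being higher and sec61al1 lower in both mutant libraries, and adds no separate evidence. The sources used here do not state how reads shared by near-identical copies were counted, which makes values of single copies uncertain. The helper gene sec62 was at 47.8 and 46.2 CPM in wild type and 64.6 and 72.7 CPM in mutants.

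Signal peptidase cuts the leader from the entering chain and the oligosaccharyltransferase attaches its sugars. Of these 7 genes 6 had positive values (49.4% of all genes), with a median of 0.41. EdgeR and DESeq2 called 0. With an unadjusted edgeR p under 0.05 there were 2 higher (8.08% of all genes) and 0 lower (8.22%). The peptidase subunit gene spcs2 was at 44.4 and 32.3 CPM in wild type and 60.3 and 63.7 CPM in mutants (log2 fold change 0.71 ± 0.20, SE, edgeR adjusted p = 0.156). In the transferase, the subunit gene ostc was at 43.6 and 37.5 CPM in wild type and 57.8 and 77.9 CPM in mutants (log2 fold change 0.73 ± 0.21, SE, edgeR adjusted p = 0.162). Other subunit genes of the transferase stood at 0.37 for ddost, 0.14 for rpn1 and -0.15 for rpn2. Beyond the 34 genes selected for values in every library, the other 25, with ERO1LB and sec61al1 among them, had log2 fold changes of -0.92 to 0.44. The lowest was that of SEL1L3, which had few reads. Of the 25, 16 were positive and 9 negative, and the lowest edgeR adjusted p among them was 0.307.

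**Figure D4:**
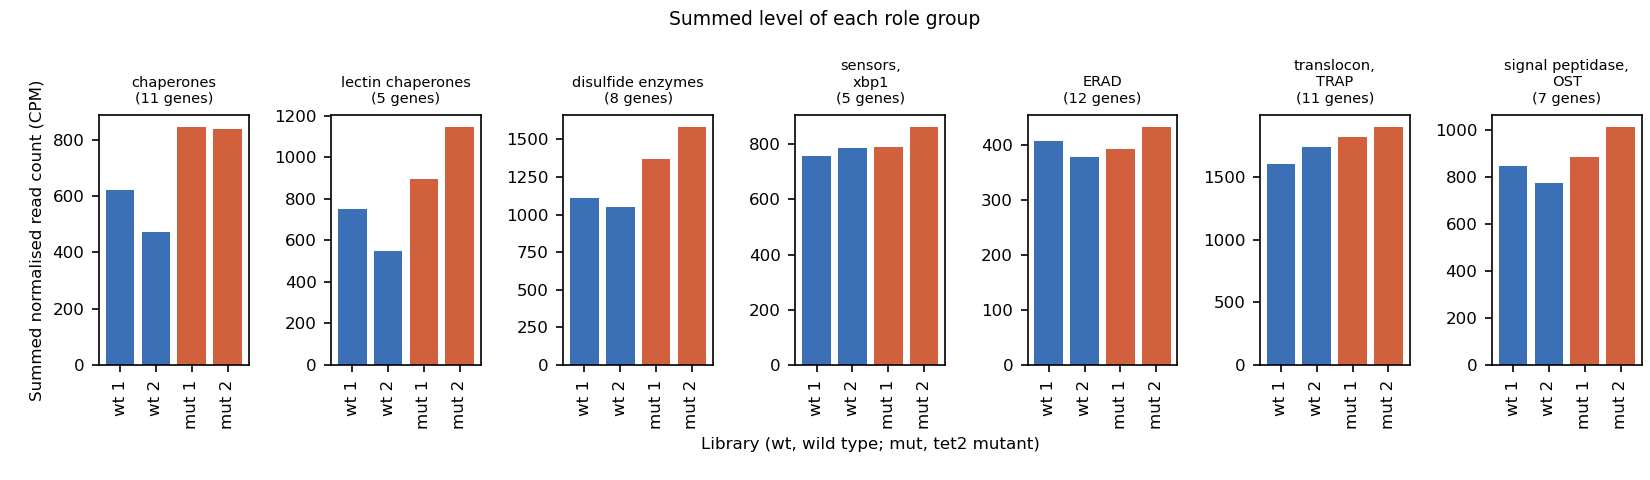
The summed normalised read count (CPM, vertical axis from 0) of each role group is shown as bars for the 4 libraries, blue for wild type and orange for tet2 mutant. Chaperones went from 623 and 472 CPM in wild type to 846 and 839 CPM in mutants, whereas the degradation group ranged from 377 to 432 CPM over all 4 libraries with overlapping genotypes.

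Summed over all 59 genes, the level was 6100 and 5751 CPM in wild-type replicates 1 and 2 and 6996 and 7775 CPM in mutant replicates 1 and 2. The 59 genes took 0.651% and 0.493% of all reads in wild type and 0.739% and 0.804% in mutants. The groups did not overlap, and the exact permutation test over 4 libraries gave a two-sided p of 0.333, the smallest that 2 against 2 allow. The difference was larger between the libraries numbered 2 than between those numbered 1. The median log2 difference over the 59 genes was 0.20 between mutant replicate 1 and wild-type replicate 1 and 0.42 between mutant replicate 2 and wild-type replicate 2, against 0.00 over all genes in each case. For the lectin chaperones these medians were 0.27 and 1.41, for the chaperones 0.49 and 0.84, and for the degradation group -0.09 and 0.15.

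**Figure D5:**
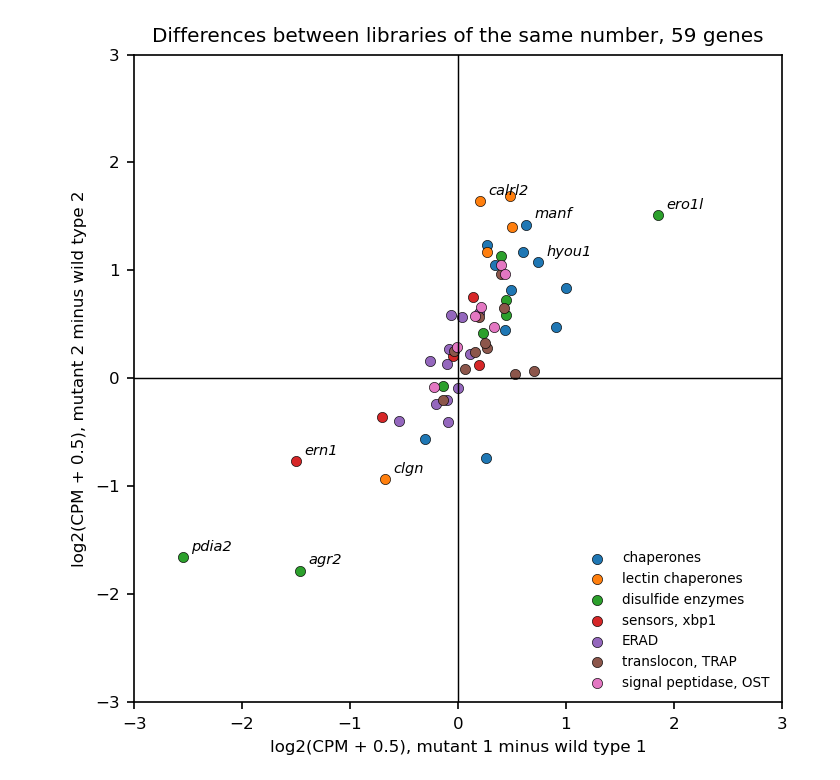
For each of the 59 genes, the difference in log2(CPM + 0.5) between mutant replicate 1 and wild-type replicate 1 (horizontal axis) is plotted against that between mutant replicate 2 and wild-type replicate 2 (vertical axis), colored by role. The axes share no library, and the labelled genes ern1, clgn, agr2 and pdia2 lie in the lower left, ero1l in the upper right, and the lectin chaperones other than clgn higher on the vertical than on the horizontal axis.

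Several neighbouring pathways were measured in the same way. For comparison, 49.4% of all genes had positive values, and edgeR called 0.516% higher and 0.626% lower. With an unadjusted edgeR p under 0.05, 8.08% of all genes were higher and 8.22% lower. The Perk branch slows translation and acts through Atf4. It was listed together with the wider integrated stress response, and the part of Perk in the values of this list was not tested. The list had 2 of 19 genes called higher and 0 lower by edgeR and by DESeq2 alike. At an unadjusted edgeR p under 0.05 there were 4 higher and 2 lower. Values were positive for 5 of 19 genes and negative for 14, and the median was -0.15. The called genes were asns, asparagine synthetase, at 32.8 and 30.0 CPM in wild type and 68.4 and 64.6 CPM in mutants (log2 fold change 1.08, edgeR adjusted p = 0.0424), and ddit4, an inhibitor of mTORC1, at 42.3 and 39.1 CPM against 89.5 and 75.4 CPM (log2 fold change 1.02, edgeR adjusted p = 0.0491). The kinase gene eif2ak3 (Perk) had a log2 fold change of -0.31, and the stress transcription factor gene ddit3 (Chop) one of -0.42, with edgeR adjusted p of 0.458 and 0.372. The Atf4 target genes chac1 and trib3 stood at -0.03 and 0.18. The list of protein targeting and early secretory transport had 47 of 52 values positive, a median of 0.32 and 1 gene called higher and 0 lower by each tool, with 11 higher and 0 lower at an unadjusted edgeR p under 0.05. That gene, copz2, encodes a subunit of the COPI vesicle coat and was at 5.50 and 2.64 CPM in wild type and 15.3 and 10.7 CPM in mutants (edgeR adjusted p = 0.0461).

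In N-glycosylation 22 of 35 genes had positive values (median 0.18), with 0 called by edgeR and DESeq2 and 7 higher and 1 lower at an unadjusted edgeR p under 0.05. Among 26 further degradation factors 16 were positive (median 0.07), with 0 called by either tool and 2 higher and 0 lower at an unadjusted edgeR p under 0.05. ER calcium genes had 7 of 22 values positive (median -0.17), with 0 called by either tool and 1 higher and 5 lower at an unadjusted edgeR p under 0.05. Chaperones of the cytosol and mitochondria had 17 of 37 values positive (median -0.02). Of the 37 genes 0 were called by edgeR and 1 lower by DESeq2, with 6 higher and 2 lower at an unadjusted edgeR p under 0.05.

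Markers of several cell types differed between the same libraries, and their part in the ER results was not tested. Over all genes edgeR called 0.516% higher and 0.626% lower. With an unadjusted edgeR p under 0.05, 8.08% of all genes were higher and 8.22% lower. Of 55 B and plasma cell genes tested, 6 were called lower and 0 higher, and DESeq2 likewise called 6 lower and 0 higher. At an unadjusted edgeR p under 0.05, 24 were lower and 2 higher. Their summed level was 635 to 739 CPM in wild type and 386 to 469 CPM in mutants; 8 listed genes, most of them immunoglobulin segments, had no read. Of 19 neutrophil genes 1 was called higher and 0 lower by each tool, with 6 higher and 1 lower at an unadjusted edgeR p under 0.05, and the summed levels overlapped, at 4062 to 5762 CPM and 5010 to 9083 CPM. The neutrophil sum was highest in mutant replicate 2 and lowest in wild-type replicate 2, the same extremes as for the calreticulin copies and canx. The sum of all 59 ER genes had these extremes too. Between the libraries numbered 1 the directions differed. There the neutrophil sum was smaller in the mutant library (5010 against 5762 CPM), whereas the calreticulin copies and canx were each higher in it. Of 26 red cell genes edgeR called 1 lower and 0 higher, DESeq2 3 lower and 0 higher, with 15 lower and 0 higher at an unadjusted edgeR p under 0.05. They took 4.93% and 6.07% of reads in wild type and 2.71% and 1.99% in mutants, and the globin genes hbae1 and hbae3 had no read. Of 26 macrophage genes edgeR called 2 higher and 4 lower, DESeq2 2 higher and 3 lower, and their sums overlapped, at 2083 to 2267 CPM and 1864 to 2138 CPM. The genes called were mpeg1 and an MFAP4 copy (higher), and csf1ra, csf1rb and further MFAP4 copies (lower). In the thrombocyte list edgeR called 1 of 15 genes, f5, higher and 0 lower, while DESeq2 called 1 higher and 1 lower. There 3 were higher and 2 lower at an unadjusted edgeR p under 0.05, and the sums were 666 to 754 CPM and 878 to 897 CPM. In the progenitor list edgeR called 1 of 22 genes, gfi1ab, lower and 0 higher, and DESeq2 called 2 lower and 0 higher. Eosinophil and mast cell genes summed to 269 to 289 CPM and 219 to 308 CPM, and kidney tubule genes to 355 to 473 CPM and 225 to 477 CPM. Of 14 kidney tubule genes tested, 12 had positive values (median log2 fold change 1.05) and 0 were called by either tool. At an unadjusted edgeR p under 0.05, 3 were higher and 1 lower. Their median log2 difference, mutant replicate 1 minus mutant replicate 2, was 2.26.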

How the data were processed

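Read counts per gene were analysed for 2 tet2 mutant and 2 wild-type libraries of poly(A) RNA (single-end reads of 50 bp), grouped by sample title. The deposited counts are raw whole numbers, which the authors obtained with FastQC 0.10.1, STAR 2.3.0 and BEDTools 2.16.1 on Zv9, tools that the submitters' processing notes also name. How multi-mapping reads, strand and gene overlaps were treated is not given in those sources.

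Genes with more than 5 reads summed over libraries were tested (17242 of 32434) with edgeR 4.0.16 in R 4.3.3. This was the two-sided quasi-likelihood F-test in its bias-adjusted form, with TMM factors of 0.858 to 1.07, the replicate number as a term, 1 residual degree of freedom, and Benjamini-Hochberg adjustment over all tested genes. Filter, thresholds and replicate term follow the study's methods, which used DESeq2. The standard error (SE) was the size of the log2 fold change divided by the root of F. DESeq2 1.42.0 and other settings served as alternatives, and the fits were tested on simulated data. Members, gene lists and the bias-adjusted form were chosen with earlier results of these data known. Every pair of libraries differed beyond counting error (chi-square per degree of freedom 19.6 to 74.8). Values in every library are given for members that were called, had an unadjusted p under 0.05, or belong to a fixed core of chaperones, sensors and degradation genes. A list of gene names gave current symbols (48 of 59 members matched). No sequence is shown, since no sequence table was used here.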

Additional observations from a re-analysis of the deposited data

How the results depend on the processing

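The median log2 fold change of the 59 ER genes was 0.31 and ranged from 0.29 to 0.31 over the alternatives with all 4 libraries, and from 0.24 to 0.35 with 1 library left out; 43 of 59 values were positive in each of these fits, except 42 of 58 with the stricter filter and 41 without wild-type replicate 2. Calls moved more. ER genes called higher numbered 1, against 0 without the replicate block and with no filter on low counts, 3 with the older quasi-likelihood form and with the filter of at least 1 CPM in 2 libraries, 2 with DESeq2, and 1 to 7 with a library left out. Those called lower numbered 2, against 1 with RLE normalization, 0 with no filter, and 2 to 3 with a library left out. At an unadjusted p under 0.05, 20 were higher, against 14 with DESeq2 and 9 to 20 with a library left out. Over all genes, 89 were called higher and 108 lower; the older form called 311 and 328, no filter 4 and 7, and the stricter filter 336 and 388, while leaving out a library gave 54 to 457 higher and 74 to 426 lower. The cause of these differences was not tested. Fits on 3 libraries carried no replicate term and had 1 residual degree of freedom. Without the replicate block and with all libraries, 86 genes were called higher and 102 lower. The labels give a shared number only: deviations of same-numbered libraries from their group means had a Pearson r of 0.095 over 17242 genes and 0.314 over the 59 ER genes, which are not independent. With 2 libraries a group, the exact test of a single value cannot pass a threshold, and 1 library can decide a call.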

Other observations

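The 5 genes that match the rule only by their current symbol had these log2 fold changes, mutant over wild type. The value was 0.93 for pdip5, now PDIA6, a disulfide isomerase (edgeR adjusted p = 0.139). It was 0.66 for prkri, listed as dnajc3b (edgeR adjusted p = 0.194), 0.15 for zgc:77086, listed as pdia7, and 0.08 for an unnamed copy of DNAJB9. For zgc:100906, listed as pdia8, it was -2.70 (edgeR adjusted p = 0.0811), below the values of pdia2 and agr2 but short of a call.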
